A study of Mus musculus with 38 samples.

Results

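Relapsed tumors of a mouse mammary cancer model that had grown back under repeated chemotherapy were compared with untreated tumors across all genes of the array. The comparison took all 4 arrays of relapsed tumors and all 6 arrays of untreated tumors, 10 of the 38 arrays of the series. The submitters' labels call the relapsed tumors resistant and the untreated tumors control. All tumors, in every group, grew from hyperplastic tissue of MMTV-PyMT; actin-GFP mice transplanted to FVB/n hosts whose fat pads had been cleared of their own epithelium. In these donors a viral mammary promoter (MMTV) drives the PyMT oncogene, and the actin promoter drives GFP. Treatment with TAC, a combination of docetaxel, doxorubicin and cyclophosphamide, began 2 months after transplantation and was repeated in cycles. By the paper's methods, relapsed tumors were taken 10 days after the fourth dose and residual tumors 10 days after the first. Residual tumors, labelled regressed, gave a further 6 arrays that entered the same model, where they add to the estimate of the spread. They were also compared with relapsed tumors to place values. GFP marked cells of donor origin, and GFP+ cells were sorted from each tumor before RNA was extracted. The sources used here state neither the age of the untreated tumors at harvest nor whether each tumor came from a separate donor, so p-values measure the spread between these samples.

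Docetaxel stabilizes microtubules, doxorubicin poisons topoisomerase II and intercalates into DNA, and cyclophosphamide alkylates DNA. Damaged DNA stabilizes the transcription factor p53, which switches on genes that stop the cell cycle (Cdkn1a), restrain p53 itself (Mdm2) or drive apoptosis (Bax, Bbc3). Interferons released in tumors act on epithelial cells and on immune cells alike and induce antiviral proteins, chemokines and the machinery of antigen presentation. Efflux pumps, altered drug targets, slower division and survival proteins are the textbook routes by which tumor cells withstand such drugs.

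Every value was a log2 ratio of tumor RNA, labelled with Cy5, to a common reference RNA from mouse cell lines, labelled with Cy3 on the same array, without dye swaps. A ratio of 0 means that tumor and reference gave equal signal, and levels cannot be compared between genes on this scale. Between 50.5 and 64.3% of spots were well above background in the Cy5 channel of relapsed tumors and between 52.6 and 61.4% in untreated tumors. Epithelial genes were expressed in all 10 tumors, with log2 ratios of at least 5.06 for Cdh1 (E-cadherin), 3.03 for Krt8 and 3.23 for Krt14. On the first principal component (29.1% of the variance) the groups overlapped, with untreated tumors 1, 2 and 3 and relapsed tumor 3 at -41.6 to -21.6 and the others at 8.49 to 32.1. On the second (17.7%) relapsed tumors lay at 6.03 to 34.4 and untreated tumors at -38.2 to 1.57. Relapsed tumors 3 and 4 shared a slide with untreated tumor 6, and this was the only slide that held both groups. Untreated tumors 1, 2 and 3 stood apart in a list of 23 macrophage markers, with a mean log2 ratio of 1.76, 2.13 and 1.43, against -0.50, -0.50 and -0.29 in untreated tumors 4, 5 and 6. Relapsed tumors 1 to 4 had -0.37, -0.21, 0.57 and -1.03. With whole sorted samples, fewer cells of a type and less RNA per cell cannot be told apart.

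Few genes passed the gene-wise test. A gene was called where limma gave an adjusted p below 0.05 together with a difference of 2-fold or more. Of 28786 genes tested, 1 was called (0.00347%), Phlda3, which was higher in relapsed tumors. Without the fold requirement 2 genes passed (0.00695%), Phlda3 and Tmem43. At an adjusted p below 0.10 there were 8 (0.0278%). At an unadjusted p below 0.05, 2203 genes differed (7.65%), of which 1321 were higher (4.59%) and 882 lower (3.06%) in relapsed tumors. The 4 relapsed tumors lay above all 6 untreated tumors at 312 genes (1.08%) and below them at 167 (0.58%), 479 in all (1.66%). Without a test, 109 genes were at least 2-fold higher (0.379%) and 118 at least 2-fold lower (0.41%). An unadjusted p below 0.05, no overlap and 2-fold together left 27 higher (0.0938%) and 19 lower genes (0.066%). Against residual tumors 61 genes were called (0.212%). Over all genes the median log2 change was 0.01 and 15556 genes (54%) were higher. The count of called genes ran from 0 to 4 when single tumors were left out, and it was 0 with slide as a fixed block, where Phlda3 differed by 1.15 with an adjusted p of 0.526 (limma).

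**Figure D1:**
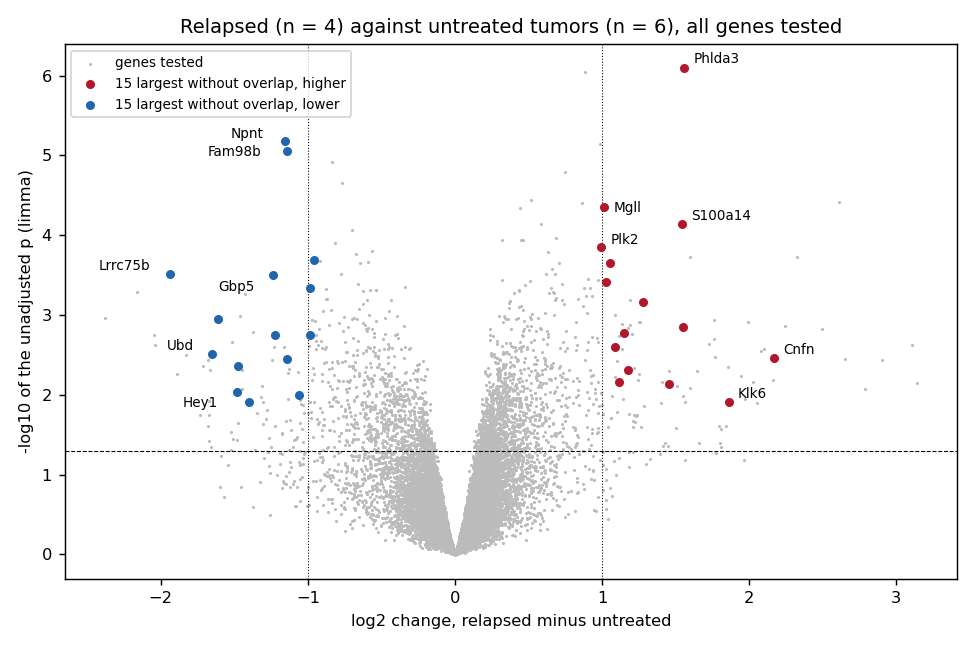
Log2 change (relapsed minus untreated, horizontal axis) against -log10 of the unadjusted p from limma (vertical axis) for each of the 28786 genes tested. Dotted lines mark a change of 2-fold in either direction and the dashed line an unadjusted p of 0.05. Red and blue points are the 15 largest positive and the 15 largest negative changes among genes whose groups did not overlap; Phlda3, at 1.56, is the only called gene.

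Phlda3 encodes a small protein with a pleckstrin homology domain that is induced by p53 and restrains the kinase Akt at the membrane. Its probe lies on chromosome 1 at 135655060 to 135655119 (build mm7). Its log2 ratio lay between -1.33 and -0.68 (median -0.88) in the 6 untreated tumors and was 1.44, 0.63, 0.32 and 0.13 in relapsed tumors 1 to 4. Every relapsed tumor was above every untreated tumor, and relapsed tumor 1 was the highest. The mean rose from -0.93 ± 0.22 (SD, n = 6) to 0.63 ± 0.58 (SD, n = 4), a log2 change of 1.56 ± 0.20 (SE), or 2.95-fold (adjusted p = 0.0131, limma). The 6 residual tumors had a mean of 0.60 ± 0.19 (SD). Within the slide that held both groups the difference was 0.91. The call was lost without untreated tumor 2 (adjusted p = 0.0511) and without relapsed tumor 2 (adjusted p = 0.103, both limma), with a log2 change of 1.56 and 1.56. It was also lost when only the relapsed and untreated tumors entered the fit (adjusted p = 0.174, limma). Without relapsed tumor 1 the change was 1.29.

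Other p53 target genes were higher together with Phlda3. Of 49 measured genes of a list of p53 targets, 36 were higher in relapsed tumors, with a median log2 change of 0.34 against 0.01 over all genes. At an unadjusted p below 0.05, 22 were higher and 1 lower (4.59% and 3.06% of all genes). The groups did not overlap at 8, Phlda3 among them, all above the untreated tumors (1.08% of all genes). The mean over the list was 0.48, 0.32, 0.17 and 0.12 in relapsed tumors 1 to 4 and -0.14 to -0.03 in untreated tumors, so the groups were apart. Residual tumors had 0.27 to 0.47. The list median was 0.26 to 0.41 over the 24 settings for which list medians were computed, was 0.34 without untreated tumors 1, 2 and 3, and was 0.25 within the slide that held both groups, where 36 of 49 genes were again higher. Phlda3 was the only called gene of the list.

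Eda2r, a death receptor of the tumor necrosis factor receptor family, was 2.34, 0.79, 0.27 and 0.30 in the relapsed tumors and between -1.18 and -0.20 (median -0.63) in the untreated tumors, with no overlap and a log2 change of 1.599 ± 0.33 (SE, adjusted p = 0.197, limma). Plk2, a polo-like kinase induced by stress, was 2.11, 2.66, 2.27 and 1.99 in relapsed and between 1.06 and 1.57 (median 1.14) in untreated tumors. Plk3, a related kinase, was 2.46, 3.04, 2.68 and 2.17 in relapsed and between 0.78 and 2.07 (median 1.87) in untreated tumors. Neither kinase overlapped between the groups. The same held for Polk, a DNA polymerase that copies past damaged bases (0.68), the thiamine transporter Slc19a2 (0.64), the phosphatase Ptp4a3 (0.63) and the desmosomal protein Perp (0.49), given as log2 changes. Cdkn1a, the inhibitor of cyclin-dependent kinases also called p21, was 2.21, 1.47, 0.54 and 0.90 in relapsed tumors and between -0.92 and 0.65 (median 0.26) in untreated tumors. Relapsed tumor 3 lay within the untreated range, and the difference of 1.14 ± 0.32 (SE) had an adjusted p of 0.32 (limma). Within the slide that held both groups it was 0.25. Mdm2, the ubiquitin ligase that degrades p53, was 0.95, 1.52, 0.84 and 0.30 against -0.14 to 0.72 (median 0.31), Zmat3 differed by 1.14 and Psrc1 by 1.26. The death genes Bax (0.23) and Bbc3 (0.39) overlapped between the groups. Gadd45a, a stress sensor often counted among p53 targets, went the other way (-0.61), and it was the single member lower at an unadjusted p below 0.05. Relapsed tumor 1 was the highest relapsed tumor for Phlda3, Eda2r, Cdkn1a, Zmat3 and Psrc1.

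**Figure D2:**
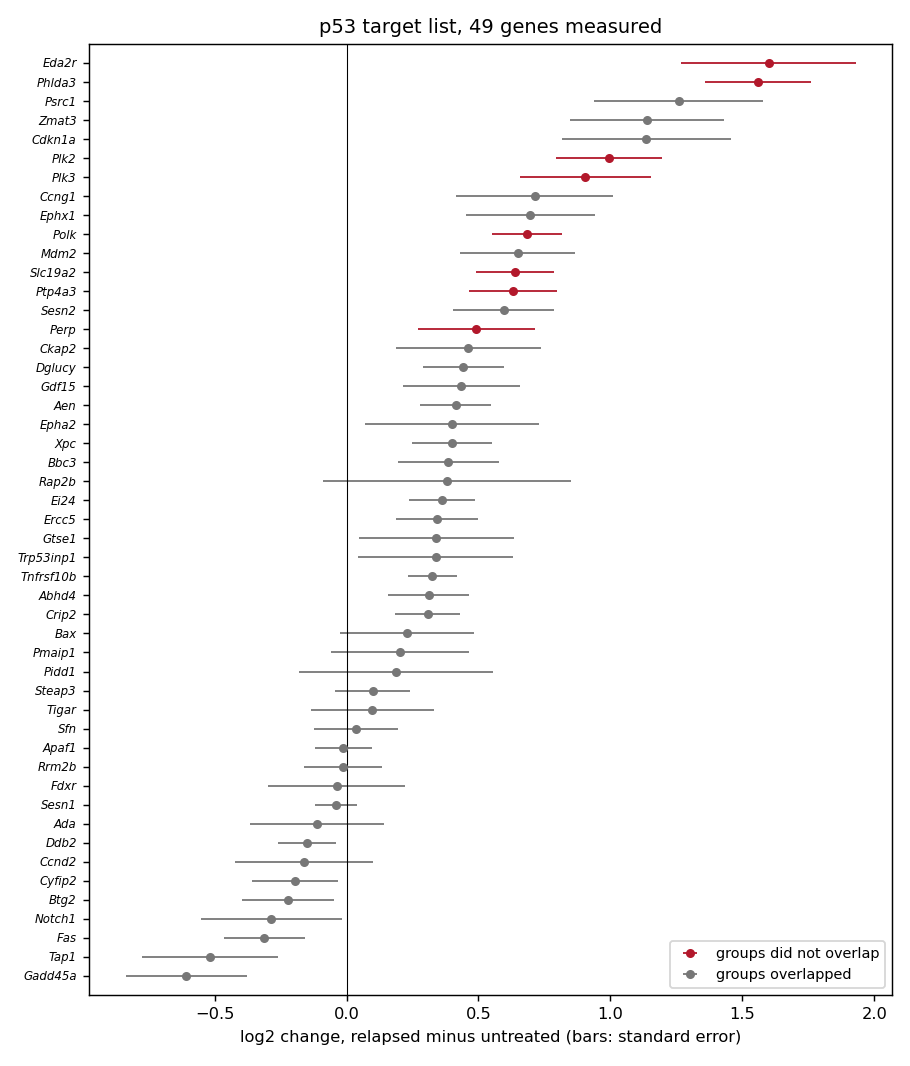
Log2 change (relapsed minus untreated, horizontal axis) of each of the 49 measured genes of the p53 target list, with bars for the standard error from limma. Red points are the 8 genes whose groups did not overlap; 36 genes lie to the right of 0, and Gadd45a at -0.61 is the lowest.

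Promoter sequences of 3 members are shown because the genes were higher together and p53 binds DNA directly. Each is a stretch of 250 bases before a RefSeq start site, read 5′ to 3′ in the direction of the gene. The build is GRCm38.p6, strain C57BL/6J, not the FVB/n strain of these mice. Capitals mark matches to the consensus half-site of p53 on either strand.
Phlda3 (chr1:135765835-135766084, plus strand): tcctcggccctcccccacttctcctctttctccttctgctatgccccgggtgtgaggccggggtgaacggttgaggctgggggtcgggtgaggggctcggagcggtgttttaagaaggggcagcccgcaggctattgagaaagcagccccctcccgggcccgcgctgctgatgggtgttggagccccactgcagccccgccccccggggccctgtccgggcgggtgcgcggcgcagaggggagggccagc
Cdkn1a (chr17:29090729-29090978, plus strand): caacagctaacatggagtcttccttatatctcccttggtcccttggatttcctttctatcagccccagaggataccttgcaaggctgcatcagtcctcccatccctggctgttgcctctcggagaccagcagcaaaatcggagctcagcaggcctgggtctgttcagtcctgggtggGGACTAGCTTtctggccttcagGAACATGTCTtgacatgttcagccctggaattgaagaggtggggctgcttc
Mdm2 (chr10:117710759-117711008, minus strand): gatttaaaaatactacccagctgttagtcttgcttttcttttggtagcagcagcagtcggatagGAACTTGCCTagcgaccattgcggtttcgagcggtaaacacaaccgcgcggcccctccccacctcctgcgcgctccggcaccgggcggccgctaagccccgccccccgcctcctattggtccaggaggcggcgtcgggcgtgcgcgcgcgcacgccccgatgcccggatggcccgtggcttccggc
The window of Cdkn1a shown held 2 half-sites, that of Mdm2 held 1 and that of Phlda3 held none. Cdkn1a has 2 such windows, and its other window, at a different start site and not shown, held none. Among further genes searched, Eda2r, Plk2, Plk3 and Psrc1 held none, Ccng1 held 1 and Polk held 1 in 1 of its 2 windows. Of 39 list genes with a promoter in the table, 10 had a match (25.6%), against 8.2% of all 27025 genes with a promoter and 7 of 40 genes (17.5%) of a list of interferon-responsive genes. A match shows only that the letters are present.

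A few genes outside the p53 list came near the threshold. Tmem43, a protein of the nuclear envelope, lay between -0.19 and 0.17 (median 0.07) in untreated tumors and at 1.21, 1.07, 0.83 and 0.52 in relapsed tumors, without overlap. It rose by a log2 value of 0.88 ± 0.11 (SE, adjusted p = 0.0131, limma), which is less than 2-fold. Npnt, or nephronectin, a matrix ligand of integrins made by basal mammary cells, lay between 1.47 and 2.51 (median 2.05) in untreated tumors and at 0.86, 0.95, 0.78 and 1.001 in relapsed tumors. The relapsed tumors lay close together and below every untreated tumor, with a difference of -1.15 ± 0.18 (SE, adjusted p = 0.0505, limma). The 2 other probes of Npnt gave -0.88 and -1.25. Fam98b, a protein linked to tRNA ligation, was 0.28, -0.46, -0.45 and -1.06 in relapsed tumors and between 0.64 and 0.85 (median 0.72) in untreated tumors (adjusted p = 0.0505, limma), but its other probe gave 0.12. Both genes fell just short of the threshold and passed it on the deposited log2 ratios, among other alternatives. Pik3cb, the p110-beta catalytic subunit of phosphoinositide 3-kinase, was 1.53, 1.71, 1.62 and 1.42 in relapsed and between 0.86 and 1.18 (median 1.06) in untreated tumors, with no overlap (log2 change 0.52 ± 0.09 (SE), adjusted p = 0.101, limma). Mgll, which splits monoacylglycerols into fatty acids, was 6.32, 6.21, 5.96 and 5.53 against 4.34 to 5.26 (median 5.13), again with no overlap (adjusted p = 0.101, limma). A further probe of Mgll that was above background in all 10 tumors gave 0.69. The kinase Dyrk3 (log2 change 0.75, adjusted p = 0.0665, limma), the transcription elongation factor Htatsf1 (-0.84, adjusted p = 0.0576) and the ubiquitin ligase Pja2 (-0.77, adjusted p = 0.0809) followed, again by limma, and all 3 were without overlap. A transcript without a gene symbol was -0.39, -0.58, -1.27 and -0.81 against -2.08 to -1.45 (median -1.71), also without overlap (log2 change 0.98 ± 0.15 (SE), adjusted p = 0.0505, limma). For every gene of this paragraph the residual mean lay nearer to the relapsed than to the untreated mean. The residual mean was 0.68 for Tmem43, 1.21 for Npnt, -0.13 for Fam98b, 1.495 for Pik3cb and 5.94 for Mgll. It was -1.009 for the transcript without a symbol. Residual and relapsed means were 2.799 and 2.68 for Dyrk3, -0.9998 and -1.12 for Htatsf1, and -0.48 and -0.71 for Pja2. Tmem43, Dyrk3, Htatsf1 and Pja2 were named after their values were seen.

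Larger differences in favor of relapsed tumors did not pass the test. Among genes well above background in all 10 tumors and without overlap, Cnfn, a protein of the cornified envelope of skin, had the largest. It was 4.26, 3.54, 0.70 and 1.398 in relapsed tumors and between -0.01 and 0.44 (median 0.39) in untreated tumors, so that relapsed tumors 1 and 2 stood far above and tumors 3 and 4 closer to the untreated range. The difference was 2.17 ± 0.63 (SE, adjusted p = 0.342, limma). Klk6, a secreted serine protease of the kallikrein family, was 4.32, 4.69, 3.85 and 3.84 against 0.46 to 3.82 (median 2.56). Residual tumors had means of 1.40 for Cnfn and 2.96 for Klk6, against 2.47 and 4.18 in relapsed tumors. S100a14, a calcium-binding protein of epithelia, was 5.300, 5.66, 4.66 and 4.51 against 2.94 to 4.095 (median 3.503), and its difference of 1.54 ± 0.29 (SE) had an adjusted p of 0.139. Krt16, a keratin of stressed epidermis, was 5.91, 5.87, 4.28 and 5.35 against 3.36 to 4.27 (median 3.93). Each of these genes placed all relapsed above all untreated tumors, although for Krt16 relapsed tumor 3 exceeded the highest untreated tumor by little. S100a3, a calcium-binding protein of the hair cuticle, differed by 1.17, and the matrix metalloproteinase Mmp10 by 1.12, each highest in relapsed tumor 2.

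Several further genes had large differences but were dim in some tumors or overlapped, and they are named here after their values were seen. Serpinb2, a protease inhibitor also called PAI-2, was 2.96, 2.86, 2.29 and 1.45 in relapsed tumors and between -0.42 and 0.11 (median -0.24) in untreated tumors, of which 3 were above background (adjusted p = 0.101, limma). Klk7, a protease of the outer epidermis, was 4.57, 5.34, 1.704 and 3.93 against 0.19 to 1.15 (median 0.90), without overlap. Krt6a, a keratin partner of Krt16, was 3.87, 3.89, 1.18 and 3.18 in relapsed tumors and between 0.34 and 1.28 (median 0.71) in untreated tumors, and relapsed tumor 3 lay within the untreated range. Tchh, the hair follicle protein trichohyalin, was 3.25, 5.94, 1.36 and 4.44 against 0.04 to 1.45 (median 1.07). Spink12, a protease inhibitor, and Calm4, a calmodulin-like protein of skin, were not well above background in any untreated tumor and were at least 7.05-fold and at least 5.25-fold higher on the mean of the relapsed tumors (adjusted p = 0.386 and 0.347, limma). For each, 3 of the 4 relapsed tumors were above background. Spink12 was 4.81, 4.96, 0.48 and 2.01 in relapsed tumors and at most 0.18 in untreated tumors, and Calm4 3.44, 3.803, 0.56 and 2.68 and at most 0.19, so relapsed tumor 3 lay close to the untreated tumors for both. Of the 20 largest positive differences among all genes with a symbol, relapsed tumor 3 was the lowest relapsed tumor at 17. The basal keratins Krt14 and Krt5 differed by 0.07 ± 0.18 and 0.05 ± 0.21 (SE), with overlap.

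**Figure D3:**
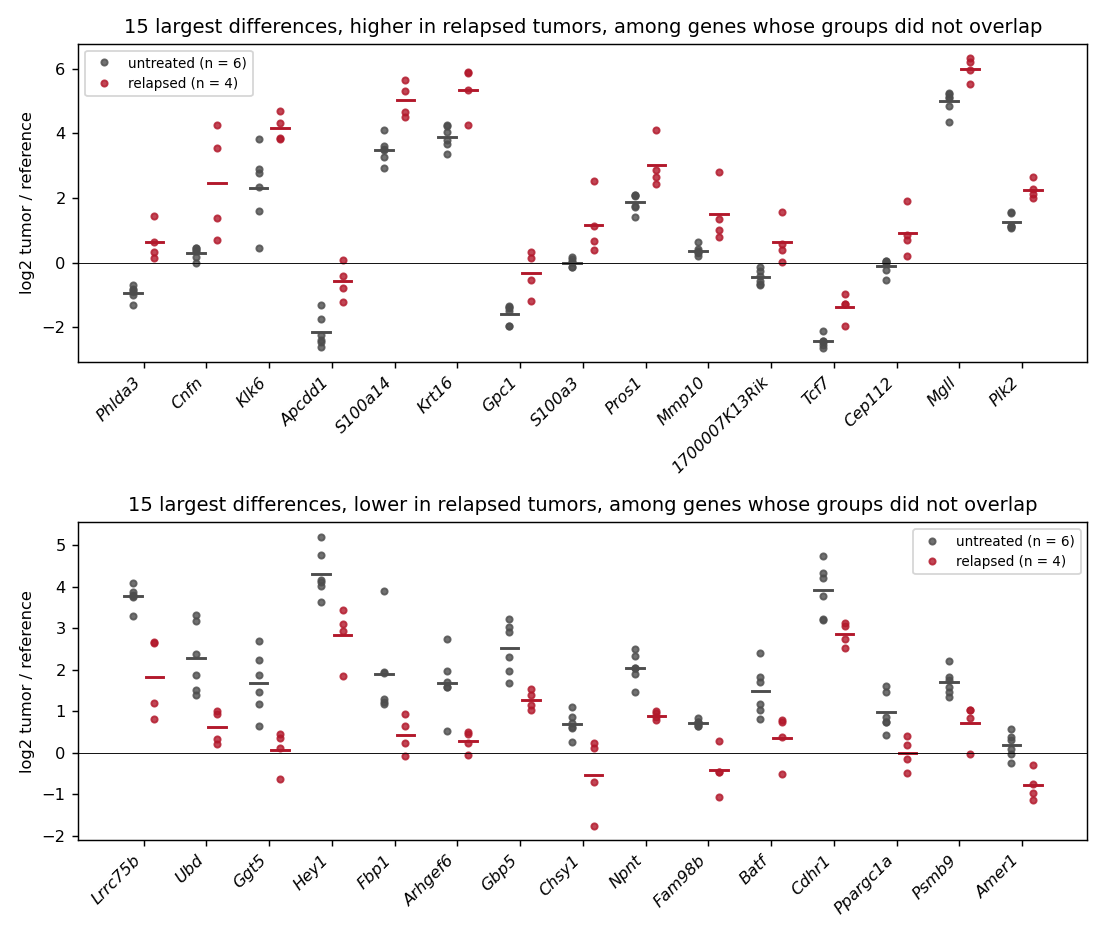
Log2 ratio of tumor to reference (vertical axis) in each untreated (grey, n = 6) and relapsed tumor (red, n = 4) for the 15 largest positive (top) and 15 largest negative (bottom) differences among genes without overlap and above background in all 10 tumors. Points are tumors and bars are group means; Cnfn spreads from 0.70 to 4.26 among relapsed tumors and from -0.01 to 0.44 among untreated tumors.

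Of the 52 measured genes of a Wnt list 30 were higher, and the median was 0.05. At an unadjusted p below 0.05, 6 were higher and 2 lower (4.59% and 3.06% of all genes), so the differences were at few members. No Wnt gene was called. Wnt proteins act through beta-catenin and TCF factors, which induce their own inhibitors. Axin2, such an inhibitor and a widely used readout of the pathway, was 3.06, 2.104, -0.38 and 1.84 in relapsed tumors and between -1.21 and -0.16 (median -0.92) in untreated tumors. Only 1 untreated tumor was above background for Axin2, and relapsed tumor 3 lay within the untreated range. Nkd1, a further feedback inhibitor that was above background in all 10 tumors, was 2.03, 2.36, -0.39 and 1.47 against -1.11 to 0.17 (median -0.78) with relapsed tumor 3 again the lowest relapsed tumor (log2 change 1.99 ± 0.51 (SE), adjusted p = 0.282, limma). Nkd2 was 4.27, 5.08, 2.89 and 4.07 against 1.44 to 3.18 (median 2.12). Residual tumors had a mean of 0.90 for Axin2, 0.89 for Nkd1 and 2.50 for Nkd2. Tcf7, which encodes a TCF factor, was -1.27, -0.98, -1.97 and -1.29 against -2.63 to -2.13 (median -2.44) without overlap, and its other probe differed by 0.49. Apcdd1, which blocks Wnt receptors at the cell surface, also did not overlap (-0.77, 0.08, -1.23 and -0.40 against -2.61 to -1.32 (median -2.33)). The ligands Wnt6 (0.74, no overlap) and Wnt10a (0.97) were higher too, and Znrf3, which removes Wnt receptors, differed by 0.55. Amer1, a partner of APC and Axin, was lower (-0.28, -0.75, -0.96 and -1.13 against -0.25 to 0.58 (median 0.21), no overlap). Fzd4, a Wnt receptor, was lower without overlap (-0.39). Axin2, Nkd1, Nkd2, Wnt10a, Znrf3 and Fzd4 were named after their values were seen. Apcdd1, Nkd2 and Amer1 are not in the list.

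Interferon-responsive genes were lower in relapsed than in untreated tumors. Of 52 measured genes of an interferon list, 50 were lower, with a median log2 change of -0.49, and 16 were lower and 0 higher at an unadjusted p below 0.05 (3.06% and 4.59% of all genes). No gene was called. In 5 of them every relapsed tumor was below every untreated tumor (0.58% of all genes). Ubd, a ubiquitin-like modifier induced by interferon, was 0.22, 0.34, 0.93 and 1.01 in relapsed tumors, below the untreated range from 1.395 to 3.32 (median 2.12), a difference of -1.65 ± 0.47 (SE, adjusted p = 0.329, limma). Psmb9, a subunit of the immunoproteasome, was -0.03, 1.04, 0.84 and 1.03 against 1.34 to 2.23 (median 1.68). Gbp5, a guanylate-binding protein that is not in the list, was 1.03, 1.16, 1.396 and 1.54 against 1.68 to 3.22 (median 2.61). Gbp7 differed by -0.54 and the RNA sensor Ddx58 by -0.83, both without overlap. The chemokine Cxcl11, which attracts T cells, was -0.13, 0.30, 0.70 and 0.31 against 0.87 to 4.17 (median 2.15), with no overlap and untreated tumors 1, 2 and 3 the highest, and 1 relapsed tumor was not well above background. Cxcl10 (-0.55, 0.71, 2.12 and 0.22 against 0.88 to 3.82 (median 2.87)) overlapped through relapsed tumor 3. Relapsed tumor 1 was the lowest relapsed tumor by the list mean, at 0.25 against 1.44 to 1.57 in the others and 1.34 to 2.06 in untreated tumors. Without it the list median was -0.13. Without untreated tumors 1, 2 and 3, which carried the macrophage markers, the median was -0.32 and 37 of 52 genes were lower. Residual tumors lay above both groups (2.41 to 2.95), and against them Ubd, Gbp5 and Psmb9 differed in relapsed tumors by -4.14, -2.104 and -1.85 (adjusted p = 0.000839, 0.00146 and 0.00131, limma).

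Promoters of 3 of these genes are shown for the element bound by interferon regulatory factors. It was searched on both strands as GAAA, any 2 bases and GAAA again, and is marked in capitals, in the same windows and build as above.
Gbp5 (chr3:142496684-142496933, plus strand): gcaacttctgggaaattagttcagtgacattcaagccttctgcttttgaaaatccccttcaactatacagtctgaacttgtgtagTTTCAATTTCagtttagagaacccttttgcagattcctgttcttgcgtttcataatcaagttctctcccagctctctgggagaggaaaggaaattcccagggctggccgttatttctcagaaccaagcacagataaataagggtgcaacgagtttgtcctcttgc
Gbp7 (chr3:142530086-142530335, plus strand): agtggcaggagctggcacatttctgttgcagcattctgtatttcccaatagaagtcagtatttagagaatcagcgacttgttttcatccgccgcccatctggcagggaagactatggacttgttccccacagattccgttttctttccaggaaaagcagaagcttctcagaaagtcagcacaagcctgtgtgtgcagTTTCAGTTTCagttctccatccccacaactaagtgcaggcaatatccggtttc
Cxcl10 (chr5:92348890-92349139, minus strand): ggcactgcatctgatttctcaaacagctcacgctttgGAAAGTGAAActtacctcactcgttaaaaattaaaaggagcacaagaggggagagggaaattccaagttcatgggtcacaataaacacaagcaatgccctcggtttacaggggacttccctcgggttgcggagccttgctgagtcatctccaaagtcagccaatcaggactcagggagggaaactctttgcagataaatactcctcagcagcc
The element was present once in each of these windows. It was present for 18 of 40 interferon list genes with a promoter in the table (45%) and for 3.46% of all genes, and absent from the windows of Ubd, Psmb9 and Ddx58. Of 39 p53 list genes, 1 had it (2.56%).

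MHC class II genes, which present peptides to helper T cells and are expressed by macrophages, B cells and dendritic cells and by epithelium under interferon-gamma, were lower as well. All 9 measured genes were lower, with a median of -0.59, and 5 had an unadjusted p below 0.05 (3.06% of all genes were lower at that level). Of the 9, 6 were well above background in all 10 tumors and 1 in none, so the direction of that 1 has no meaning. H2-Aa, an MHC class II alpha chain, was 0.92, 1.33, 2.303 and 1.45 in relapsed tumors and between 1.81 and 5.55 (median 4.18) in untreated tumors, and the groups overlapped. Its invariant chain partner Cd74 was -1.72, -1.56, -0.80 and -1.37 against -1.395 to 1.96 (median 0.86). Ciita, the transactivator of the class, was 0.49, 0.68, 0.41 and 0.50 against 0.69 to 1.53 (median 1.09), with every relapsed tumor below every untreated tumor. Macrophage markers moved in the same direction. All 23 were lower, with a median of -0.91, but the difference was carried by untreated tumors 1, 2 and 3. Csf1r, the receptor for macrophage colony-stimulating factor, was 1.08, 1.33 and 0.39 in these tumors, -1.69 to -1.397 in the other untreated tumors and -1.65, -1.300, -0.64 and -2.21 in relapsed tumors. Without them the macrophage median was 0.14, and that of MHC class II was -0.47, with 7 of 9 genes lower. On the scanner software's processed signals the MHC class II median was -1.03, and with slide as a fixed block the macrophage median was -0.34. With the macrophage mean as a covariate the medians of the interferon and MHC class II lists were -0.32 and -0.60. Within the slide that held both groups they were -0.35 and -0.69, and that of the macrophage list was 0.07. Igh-6, an immunoglobulin heavy chain of B cells, was 0.54, 0.28, 0.60 and 0.31 against 0.96 to 4.34 (median 1.65), highest in untreated tumor 1. The T cell gene Cd3d differed by -0.65 and was above background in 4 untreated and 2 relapsed tumors. Both were without overlap. Relapsed lay below untreated tumors at 2 of 11 B cell and 1 of 20 T and NK cell genes (0.58% of all genes). The medians of these lists were -0.11 and -0.03, with 8 and 16 genes lower. Only 4 and 6 genes were well above background in all 10 tumors. Without untreated tumor 1 the B cell median was 0.00016.

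**Figure D4:**
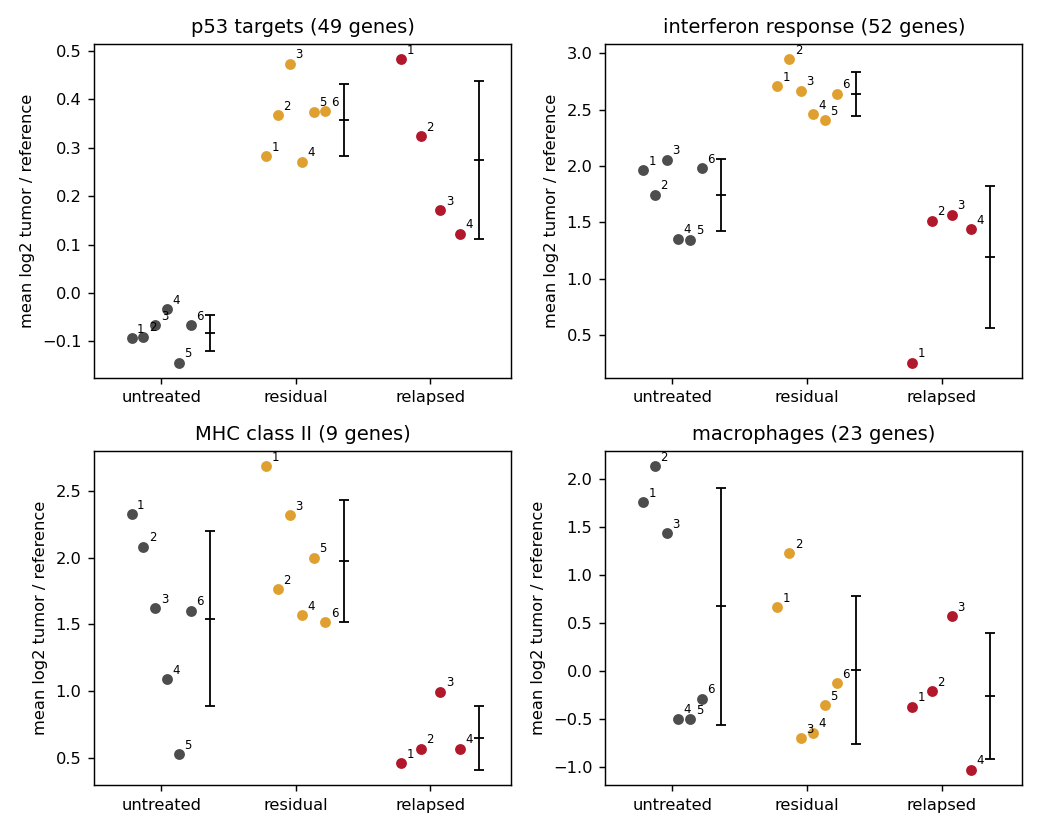
Mean log2 ratio of tumor to reference over the measured genes of 4 lists (vertical axis) in each untreated (n = 6), residual (n = 6) and relapsed tumor (n = 4). Points carry the tumor's number, and the bar beside each group is its mean and SD. The p53 list shows all relapsed above all untreated tumors, relapsed tumor 1 is low for the interferon list, and untreated tumors 1, 2 and 3 are high for macrophages.

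Further genes without overlap and above background in all 10 tumors were lower in relapsed tumors, none of them called. Lrrc75b, a leucine-rich repeat protein, had the largest difference at -1.93 ± 0.42 (SE, adjusted p = 0.232, limma). It was 0.82, 1.19, 2.65 and 2.68 in relapsed tumors and between 3.31 and 4.096 (median 3.79) in untreated tumors, and relapsed tumors 1 and 2 were the lowest. Ggt5, which cleaves glutathione conjugates outside the cell, was -0.64, 0.12, 0.46 and 0.35 against 0.66 to 2.702 (median 1.67). Hey1, a repressor induced by Notch receptors, was 1.86, 2.94, 3.11 and 3.44 against 3.64 to 5.21 (median 4.14). It was the only measured Notch list gene without overlap, among 32 whose median was 0.03 (0.58% of all genes lay below without overlap). Fbp1, a gluconeogenic enzyme, was -0.08, 0.94, 0.24 and 0.65 against 1.18 to 3.896 (median 1.61), and untreated tumor 6 was far above the other untreated tumors. Arhgef6, an exchange factor for Rac, was 0.50, 0.25, -0.04 and 0.45 against 0.54 to 2.74 (median 1.65), and its 3 other probes differed by -0.80 to -1.12. Ppargc1a, a coactivator of mitochondrial genes, was 0.19, -0.15, 0.42 and -0.48 against 0.44 to 1.62 (median 0.81), but a further probe above background in all 10 tumors gave -0.09. Chsy1 (chondroitin synthesis, -1.22), Batf (an AP-1 factor of immune cells, -1.14) and Cdhr1 (a cadherin, -1.06) completed the 15 largest. The positive side also held Gpc1, a cell-surface heparan sulfate proteoglycan (0.33, 0.13, -1.18 and -0.53 against -1.97 to -1.34 (median -1.44)), Pros1, or protein S, a ligand of TAM receptors (4.103, 2.64, 2.43 and 2.87 against 1.43 to 2.11 (median 1.91)), Cep112, a centrosomal protein (1.02), and 1700007K13Rik (1.09).

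With 1 gene called of all those tested (0.00347%), the absence of calls in a list says little about its members, and the following lists are described by their values. Of 39 measured ABC transporters, which export drugs, 25 were higher with a median of 0.06, and 3 had an unadjusted p below 0.05, a share near that of all genes (7.65%). Abcb1b, one of the P-glycoprotein genes that export docetaxel and doxorubicin, was -2.83, -2.89, -2.799 and -3.100 in relapsed tumors and between -3.07 and -2.16 (median -2.71) in untreated tumors, a difference of -0.21 ± 0.17 (SE). Abcb1a, the other, was not well above background in any of the 10 tumors. Abcg2, the breast cancer resistance protein, was 0.19, -0.21, 0.25 and 0.44 against -0.17 to 1.31 (median 0.19), and relapsed tumors lay within the untreated range except relapsed tumor 2, just below it. Abcc1, which exports glutathione conjugates and anthracyclines, was -1.36, -1.37, -1.23 and -1.46 against -2.0 to -1.47 (median -1.69), a difference of 0.35 ± 0.12 (SE) without overlap (adjusted p = 0.403, limma). Top2a and Top2b, the topoisomerases that doxorubicin poisons, differed by -0.14 ± 0.30 and 0.04 ± 0.14 (SE). The beta-tubulins Tubb3 and Tubb2b differed by 0.24 ± 0.15 and 0.47 ± 0.30 (SE). The list of 38 tubulins and microtubule regulators had a median of 0.14 (0.07 to 0.17 over 24 settings, 0.08 without relapsed tumor 3). At an unadjusted p below 0.05, 2 of its genes were higher (5.26% of the list), near the share of all genes (4.59%). In the list of drug metabolism and antioxidant genes (58 measured, median 0.07), Cyp1b1, a cytochrome that oxidizes estrogens, was 1.87, -0.07, -1.88 and -0.51 against -2.57 to -1.25 (median -2.31). Relapsed tumor 3 again lay within the untreated range. Gsta3, a glutathione S-transferase, was 0.73, 2.48, -2.299 and -0.18 against -2.32 to -0.84 (median -0.87). Relapsed tumors 1, 2 and 4 were above the untreated tumors and relapsed tumor 3 was at their lower end.

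Bcl2l1 (Bcl-xL), which blocks apoptosis at mitochondria, was 2.41, 2.17, 1.74 and 1.52 in relapsed tumors and between 1.09 and 1.71 (median 1.39) in untreated tumors, a difference of 0.56 ± 0.19 (SE, adjusted p = 0.403, limma). Bcl2 and Mcl1 differed by -0.24 ± 0.28 and 0.05 ± 0.21 (SE). Bok, a proapoptotic relative, was higher (0.97) and Bmf, a BH3-only protein, lower (-0.89), both with overlap. The 47 measured genes of DNA repair and checkpoint had a median of -0.03. Lig4, the ligase of end joining, was the only member without overlap (1.05, 0.87, 1.17 and 1.22 against 0.17 to 0.86 (median 0.60)). Of all genes, 1.08% lay above without overlap. None of 39 mitosis genes had an unadjusted p below 0.05, against 7.65% of all genes. Mki67, the proliferation antigen Ki-67, was -4.58, -2.601, -2.45 and -2.73 against -3.68 to -1.01 (median -2.92), lowest in relapsed tumor 1 and highest in untreated tumor 5. The mitosis median was -0.15, and its sign changed with the setting. It was 0.12 without relapsed tumor 1, 0.05 without untreated tumor 5, 0.29 with slide as a fixed block and -0.33 without untreated tumors 1, 2 and 3. Within the slide that held both groups it was 0.71, with all 39 genes higher. The senescence list (36 measured) had a median of 0.01, which was 0.39 without untreated tumors 1, 2 and 3, 0.33 with the macrophage mean as a covariate and 0.23 with slide as a fixed block. It was 0.12 without relapsed tumor 1, 0.09 without relapsed tumor 4 and 0.07 without untreated tumor 3. Of its members, the cyclin-dependent kinase inhibitor Cdkn2b was 0.53, -0.22, -0.39 and -0.71 against -1.502 to -0.44 (median -1.07). Myc was -0.03, 0.08, -0.56 and -0.49 against -1.14 to -0.70 (median -0.78), without overlap, at a difference of 0.60 ± 0.16 (SE).

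Epithelial identity genes were higher or lower by gene. Of 27 measured luminal genes 20 were higher, with a median of 0.22, which was 0.12 without untreated tumor 6 or without relapsed tumor 2. Esr1, the estrogen receptor, was lower, at 0.26, -0.16, 1.100 and 0.43 against 0.84 to 1.56 (median 1.47) (difference -0.95 ± 0.24 (SE), adjusted p = 0.282, limma). Erbb2 was 1.29, 1.32, 1.71 and 1.12 against 0.65 to 1.17 (median 0.87), and Areg, a ligand of the epidermal growth factor receptor, 3.25, 3.48, 2.36 and 2.56 against 1.25 to 2.54 (median 1.74). Btn1a1, a membrane protein of milk fat, was 1.71, 0.86, 1.04 and 1.49 against 1.49 to 4.07 (median 2.76). Krt8 differed by 0.36 ± 0.30, Cdh1 by 0.28 ± 0.33 and Vim by -0.04 ± 0.55 (SE), and the list of epithelial-mesenchymal transition (34 measured) had a median of 0.03. Vim, a mesenchymal filament that macrophages also express, turned to 0.82 without untreated tumors 1, 2 and 3. Itgb6, an epithelial integrin, was 3.32, 2.83, 4.14 and 2.88 against 2.403 to 2.78 (median 2.57), without overlap. Stard4 and Fads1, which handle cholesterol and fatty acids, differed by -0.77 and -0.76, while the 35 genes of that pathway had a median of -0.05. Markers of further cell types are given by their medians. These were -0.06 for fibroblasts (16 measured), 0.19 for endothelium (14), 0.11 for neutrophils (15), -0.03 for T and NK cells (20) and 0.03 for adipocytes (13). In the same order, 11, 5, 3, 6 and 7 genes were well above background in all 10 tumors, and 0, 2, 4, 3 and 3 in none. The direction of a gene above background in none has no meaning. The endothelial median was 0.07 without relapsed tumor 2, 0.06 without relapsed tumor 3 and 0.12 without untreated tumor 1. The neutrophil median was 0.19 without untreated tumor 4, 0.19 without relapsed tumor 1 and 0.17 without relapsed tumor 2, and S100a8 of neutrophils differed by 0.83.

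Endoplasmic reticulum stress genes were higher at 24 of 29 (median 0.18), among them Sesn2, a stress-induced inhibitor of mTOR complex signaling, at 1.27, 0.37, 0.75 and 0.24 against -0.36 to 0.41 (median 0.06), and Mthfd2, a mitochondrial folate enzyme, at -0.66, -1.21, -0.84 and -1.898 against -1.93 to -1.04 (median -1.83). The endoplasmic reticulum stress median was 0.07 without relapsed tumor 1 and 0.09 without untreated tumor 6. Hypoxia and glycolysis genes were higher at 23 of 32 (median 0.15), a median that was 0.07 without relapsed tumor 4, 0.08 without untreated tumor 4 or 6, 0.26 without relapsed tumor 1 and 0.34 without untreated tumors 1, 2 and 3. The list held the prolyl hydroxylase P4ha2 at 0.84 and the histone demethylase Kdm3a at 0.25. Ccnd1, or cyclin D1, which drives entry into the cell cycle, was -0.58, -0.33, -0.55 and -0.76 against -1.39 to -0.68 (median -1.001), in a list of 40 replication and G1/S genes whose median was -0.04. That median was 0.35 within the slide that held both groups, where 34 of 40 genes were higher, 0.19 with slide as a fixed block, -0.27 without untreated tumors 1, 2 and 3, 0.09 without untreated tumor 5 and 0.06 without relapsed tumor 1. Aldh1a1, an aldehyde dehydrogenase that inactivates a cyclophosphamide metabolite, differed by 0.42 ± 0.12 (SE). Medians were 0.05 for 8 topoisomerases, 0.15 for 18 genes of the Bcl2 family (0.09 without untreated tumor 5 or 6), -0.07 for 20 milk and lactation genes and 0.06 for 28 basal genes. They were 0.03 for 16 Erbb receptors and ligands, -0.03 for 27 stem and progenitor genes, 0.04 for 43 histone methyltransferases and -0.08 for 51 matrix genes. They were 0.04 for 27 immediate early and heat shock genes, which respond to tissue handling, -0.01 for 49 growth factor signaling genes, -0.11 for 11 B cell genes and 0.20 for 6 erythroid genes. The B cell median ran from -0.39 to 0.09 over the settings tried, and the erythroid median was 0.11 without relapsed tumor 2.

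**Figure D5:**
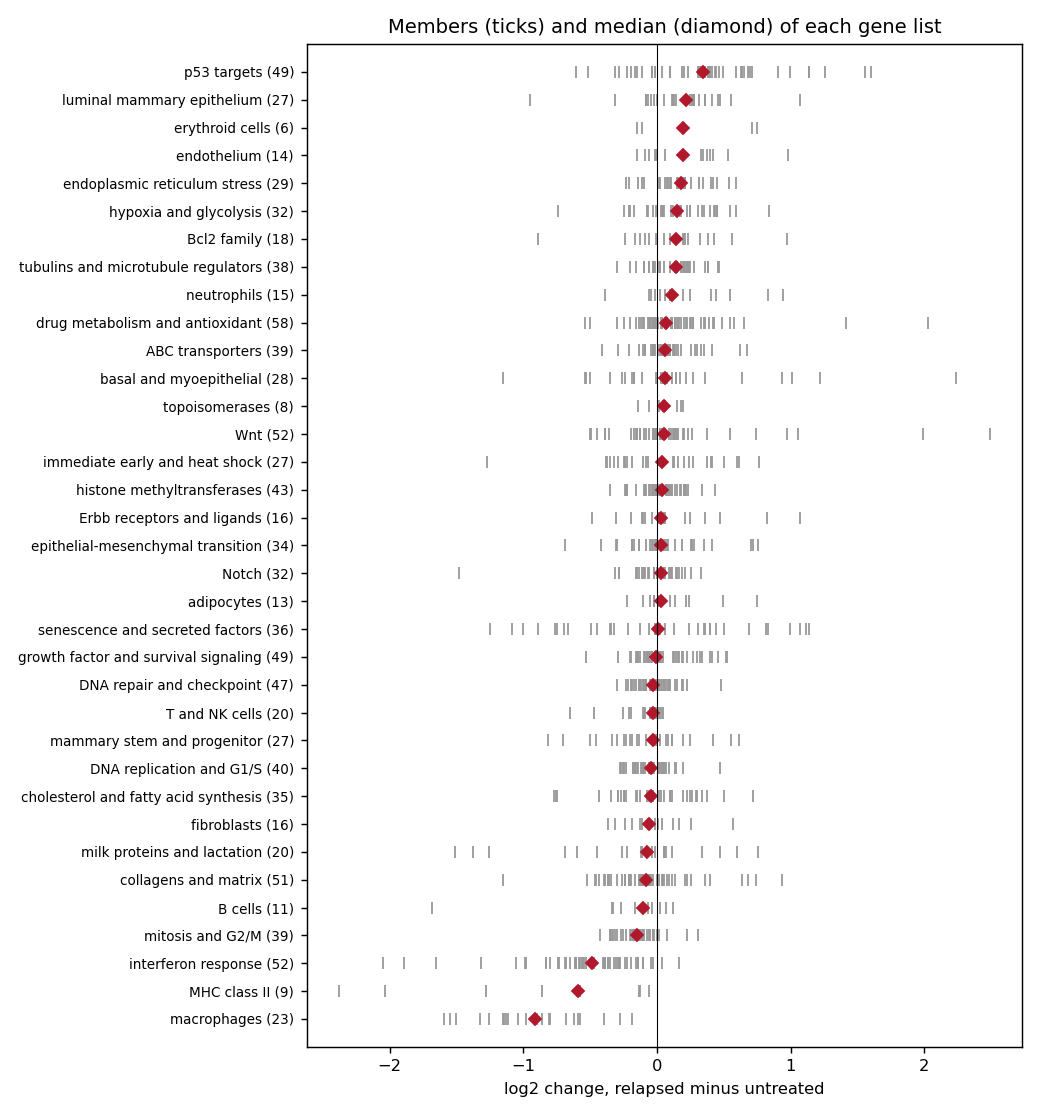
Log2 change (relapsed minus untreated, horizontal axis) of every measured member (ticks) of the 35 gene lists, with the number measured in parentheses and the list median as a diamond. The p53 targets have the highest median (0.34), and interferon response (-0.49), MHC class II (-0.59) and macrophages (-0.91) the lowest.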

How the data were processed

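Tumor RNA (Cy5) and a common reference RNA (Cy3) were hybridised to Agilent 2-colour arrays. The authors deposited scanner output with foreground and background intensities per spot, extracted with Agilent Feature Extraction 10.7. They also deposited a table of log2 ratios of tumor to reference, made per their methods with a normal-exponential background model, loess and quantile normalization in limma; the offset is not given in the sources used here. Here the intensities were background-corrected with normexp (offset 50), normalized by loess within arrays with control spots at weight 0, and quantile-normalized between arrays, using limma (version 3.58.1) under R (version 4.3.3), with the package statmod at 1.5.0 and files read by data.table, version 1.17.8. Spots of a probe were averaged, and 1 probe stood for each of 28786 genes, the brightest on average. All 16 untreated, residual and relapsed tumors entered 1 linear model with empirical Bayes variances, and p-values were adjusted by Benjamini-Hochberg over all genes. Groups came from the submitters' labels. The precision is limited by the number of arrays.

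Genes named were the called gene, the 15 largest positive and 15 largest negative differences (unadjusted p below 0.05, no overlap, above background and not saturated on all 10 arrays), 2 genes of largest moderated t per list for 35 lists, and fixed drug and lineage genes; all other genes were named after their values were seen. The members and the lists were chosen with earlier results of these data known. On simulated data the test recovered 96.5% of 200 genes changed by a log2 value of 1.5 and 97% at 2, with 2 false calls each, and made 0 calls when none changed. The simulated noise was normal and independent between genes and between arrays, without slide effects, so this recovery need not hold on the arrays themselves. Recovery of genes whose spread differs between the groups was not tested. Cnfn had an SD of 1.70 in relapsed and 0.18 in untreated tumors and was not called at a difference of 2.17. Of all genes, 42.5% had a larger SD in relapsed than in untreated tumors. Alternatives covered background, normalization, probes, samples in the fit, slide and replicate blocks, and each tumor left out. Promoters came from RefSeq (GRCm38.p6). The labels do not say whether replicate numbers pair tumors, and the numbers were not taken as pairs. Probe sequences were not used here.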

Additional observations from a re-analysis of the deposited data

Results flagged for a closer look

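Of 322 groups of values examined (126 genes and 35 list means in the untreated and in the relapsed tumors), 19 held a tumor that stood far from the others of its group (5.9%), and chance alone gives about 1 in 20. All values are log2 ratios of tumor to reference.

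Relapsed tumor 1 was the lowest relapsed tumor for Mki67 (-4.58), the mean of the mitosis list (-3.19), the mean of the interferon list (0.25) and the mean of the growth factor list (-0.37). Relapsed tumor 4 was the highest for the mean of the cholesterol and fatty acid list (0.12).

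Untreated tumor 5 was the highest untreated tumor for Cyp1b1 (-1.25), Lpo (1.72), the mean of the replication and G1/S list (-0.80) and the mean of the cholesterol and fatty acid list (0.34). It was the lowest for Cdkn1a (-0.92) and for the mean of the immediate early and heat shock list (0.91). Untreated tumor 6 was the highest for Fbp1 (3.90), Gbp7 (1.76) and the mean of the basal list (1.37). Untreated tumor 4 was the highest for Krt8 (4.08) and the lowest for Esr1 (0.84). Untreated tumor 3 was the lowest for Ovol1 (3.07), untreated tumor 2 the lowest for Dyrk3 (1.62), and untreated tumor 1 the highest for Mthfd2 (-1.04).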

How the results depend on the processing

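Phlda3 was higher in relapsed tumors under every setting tried (log2 change 1.15 to 1.73 over the fits and 0.91 within the shared slide, adjusted p 0.0042 to 0.526, limma) and was called in 20 of them. It lost the call with a normexp offset of 0 (adjusted p = 0.0536), with the 10 arrays normalized and fitted alone (0.177), with only both groups in the fit (0.174), with slide as a fixed block (0.526), with the replicate block (0.127), without untreated tumors 1, 2 and 3 (0.102), and without untreated tumor 2 (0.0511) or relapsed tumor 2 (0.103), all by limma; the cause was not tested.

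The count of called genes (relapsed against untreated tumors, all genes), 1 in the report, was 0 with a normexp offset of 0, with slide as a fixed block, with the replicate block and at an adjusted p below 0.01 (2105, 1436, 2519 and 2203 genes at an unadjusted p below 0.05, limma). It was 2 with the scanner software's processed signals, Aquantile, no normalization between arrays, all 38 arrays normalized together, the mean over probes and no minimum fold. Aquantile and no normalization between arrays gave the same log2 changes. They are not separate alternatives, although both are counted among the settings. It was 3 with the deposited log2 ratios, without dim probes and with control spots kept in the loess fit, and 6 with the macrophage mean as a covariate. Leaving out single tumors gave 0 (untreated 2 or relapsed 2, with 2178 and 1905 genes at an unadjusted p below 0.05) to 4 (relapsed 4). The count was 1 with the 10 arrays alone, with only both groups in the fit and without untreated tumors 1, 2 and 3, but none of these genes was Phlda3. Keeping control spots, leaving out the 3 untreated tumors and the covariate were chosen after seeing the data. Same-numbered tumors correlated at -0.14 to 0.38 in their deviations, and differently numbered tumors at -0.34 to 0.41. These ranges do not settle whether the numbers mark pairs, and they were not taken as pairs. Under the replicate block the Phlda3 change was 1.57.

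No called gene reversed. Among uncalled genes near 0, slide as a fixed block turned Abcb1b to 0.12, Top2a to 0.33, Top2b to -0.024, Bcl2 to 0.19, Mki67 to 0.26 and Krt8 to -0.14. Without untreated tumors 1, 2 and 3, Abcb1b was 0.065, Top2b -0.12, Vim 0.82, Csf1r 0.13 and Adgre1 0.13, and with the covariate Abcb1b was 0.035, Top2b -0.11 and Vim 0.71. The replicate block turned Abcg2 to 0.051, Mcl1 to -0.042 and Krt5 to -0.070. Krt5 was -0.078 with an offset of 0 and -0.18 with processed signals, and Mcl1 was -0.032 over the mean of probes. Leaving out single tumors gave ranges of -0.23 to 0.069 for Abcg2, -0.24 to 0.053 for Top2a, -0.044 to 0.16 for Top2b, -0.049 to 0.13 for Mcl1, -0.56 to 0.15 for Mki67, -0.016 to 0.18 for Krt14, -0.057 to 0.17 for Krt5 and -0.38 to 0.23 for Vim. The value of Abcb1a (-0.028 with slide as a fixed block) has no interpretable sign, since the gene was not well above background in any of the 10 tumors.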
